A study of Mus musculus with 16 samples.

Results

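The RNA polymerase III small RNA genes described here are 6 mouse genes, chosen by name from the 49943 genes that RefSeq annotates on the assembled chromosomes of GRCm38.p6, the build called mm10. They are Rn7sk, Rn7s1, Rn7s2, Rmrp, Rpph1 and Rn4.5s, all between 174 and 332 bp long. For each, the fasting-enriched regions of H3K9 beta-hydroxybutyrylation that overlap the gene or lie within 1 kb of it were taken. This mark is an acyl group on histone H3 lysine 9 derived from the ketone body beta-hydroxybutyrate, which the liver releases in fasting. The genes were picked with values of the fasted list in view, so the counts and scores at them are a description without a test.

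The mice were of the strain C57BL/6J and at postnatal day 35, and the chromatin was that of the occipital cortex. One group was fasted for 48 h and the other was fed ad libitum; strain, age and tissue were shared, and the labels give tissue as a cortex homogenate, which mixes cell types. Each feeding state had 4 immunoprecipitated and 4 input libraries, 16 in all. The values were the authors' own region lists, with 8404 regions enriched in fasted mice and 1 region enriched in ad libitum mice. Each region carries 1 log likelihood ratio (log-LR), the authors' score for the difference, and no value per library, so no fold change, replicate spread or depth can be given. The log-LR of fasted regions had a median of 4.96 and ran from 3.11 to 1498. Of 22 marker genes of brain cell types, liver, muscle and blood, 1 held a fasted region within 1 kb of an end, the myelin gene Mbp. That share was 4.55%, beside 11.9% of all coding genes. The excitatory neuron marker Tbr1 had a region inside the gene but away from its ends (log-LR 4.01). A list of regions gives no level of expression, so the labelled tissue could not be checked further.

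RNA polymerase III transcribes short untranslated RNAs that every cell uses. The 7SK RNA of Rn7sk holds the kinase P-TEFb in an inactive particle and so restrains elongation by RNA polymerase II. The 7SL RNA of Rn7s1 and Rn7s2 is the scaffold of the signal recognition particle, which brings ribosomes to the endoplasmic reticulum. Rmrp encodes the RNA of RNase MRP, which acts in ribosomal RNA processing, and Rpph1 the RNA of RNase P, which trims the leader of precursor tRNAs. The 4.5S RNA of Rn4.5s is a rodent RNA related to the B1 repeat. Promoters of this polymerase lie upstream of the gene for 7SK, RNase MRP and RNase P RNA, with a distal element that can hold an octamer bound by the factor Pou2f1. The tRNA genes have internal promoters with an A box and a B box.

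None of the 6 genes (0) has a promoter window in the RefSeq sequence table used here, so sequences next to them are shown from windows of neighbouring genes on the plus strand of GRCm38.p6. The first pair lies beside the genes without a region and shows the DNA between each of them and the neighbouring coding gene. The gene table gives no strand, so whether it lies upstream of Rpph1 or Rmrp was not determined. The stretch before the coding gene Parp2, chr14:50807666-50807896, begins with 106 bases annotated as Rpph1. The stretch before the coding gene Ccdc107, chr4:43493115-43493339, starts 55 bases from Rmrp. Capitals in both mark the octamer ATTTGCAT, read on either strand.
Before Parp2, with Rpph1 at its left: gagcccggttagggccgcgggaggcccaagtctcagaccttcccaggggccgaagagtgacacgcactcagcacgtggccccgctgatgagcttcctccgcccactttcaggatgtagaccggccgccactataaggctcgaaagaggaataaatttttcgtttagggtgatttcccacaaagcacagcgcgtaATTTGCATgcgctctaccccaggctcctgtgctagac
Before Ccdc107, beside Rmrp: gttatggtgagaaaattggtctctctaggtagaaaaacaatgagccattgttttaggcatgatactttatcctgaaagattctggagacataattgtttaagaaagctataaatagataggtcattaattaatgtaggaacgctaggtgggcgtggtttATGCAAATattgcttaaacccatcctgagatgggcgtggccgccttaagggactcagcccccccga

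The other sequence comes from beside Rn4.5s, chr6:47653742-47653991, the 250 bases before a start of the predicted coding gene Gm40369. That start lies within the gene, which is annotated from 47652901, so the stretch is inside Gm40369 and upstream of this start only. Another window of Gm40369, at 47652651 to 47652950 before its lower end, had 0 bases in a region. Its letters matched those of the shown window at 74 of 300 bases. Capitals mark the 184 bases of the shown stretch inside a fasting-enriched region with a log-LR of 10.4. This stretch is shown because the same letters return along the run of regions at Rn4.5s.
Gm40369 upstream: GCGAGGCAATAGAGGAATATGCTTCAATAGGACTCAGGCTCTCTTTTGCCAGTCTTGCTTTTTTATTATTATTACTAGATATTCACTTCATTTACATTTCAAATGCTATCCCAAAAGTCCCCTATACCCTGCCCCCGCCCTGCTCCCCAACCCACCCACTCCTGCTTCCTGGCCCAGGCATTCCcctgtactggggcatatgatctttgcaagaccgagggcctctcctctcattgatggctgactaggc

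Fasting-enriched regions were present at 4 of the 6 genes, Rn7sk, Rn7s1, Rn7s2 and Rn4.5s, and at each of the 4 a region overlapped the gene itself. No region lay within 1 kb of Rmrp or Rpph1. By the same rule 10.1% of all annotated genes had a region in the gene or within 1 kb, and 2.51% of the 6580 genes up to 500 bp long did. A region overlapped 8.55% of all annotated genes and 0.851% of these short genes, or 56. The choice of genes used this same list, so nothing is read from the share of 4 in 6. The ad libitum region lay near none of them, with 0 regions within 1 kb.

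**Figure D1:**
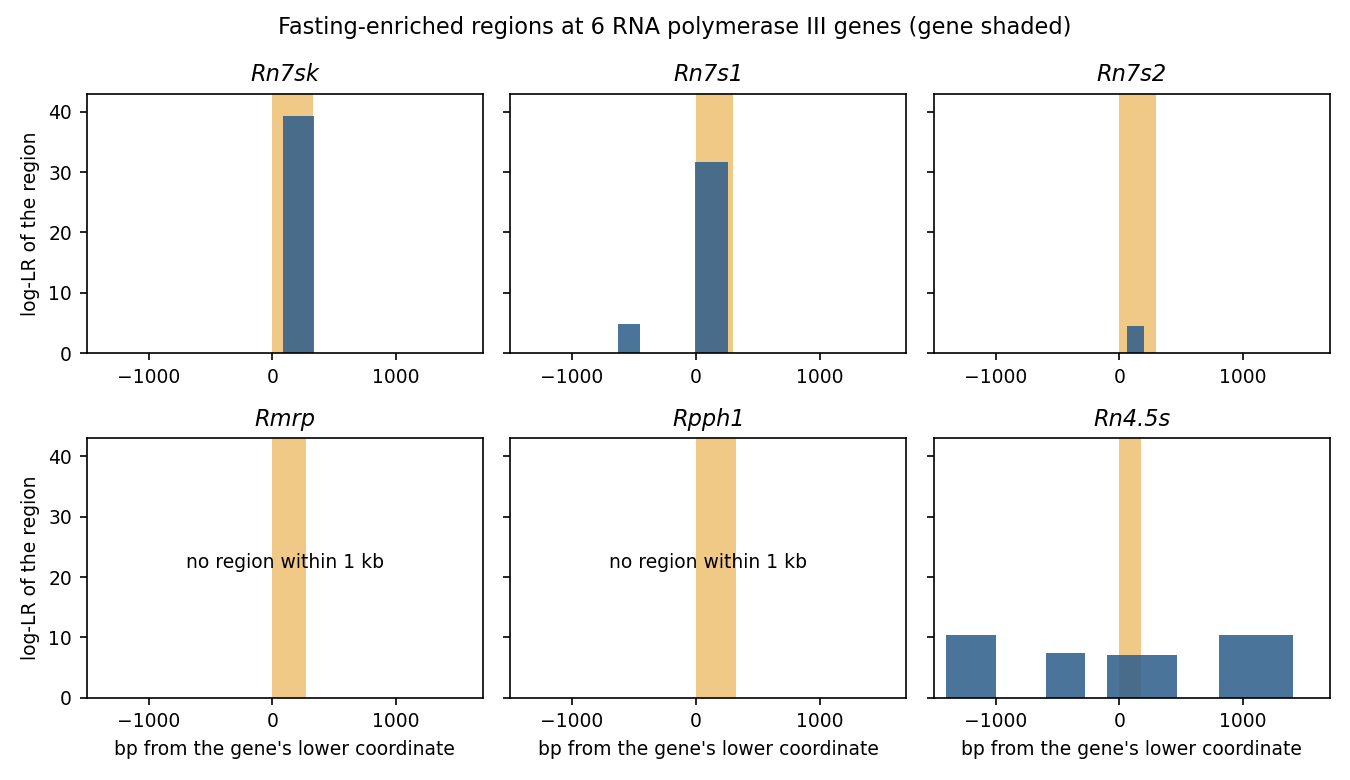
Fasting-enriched regions at each of the 6 genes, drawn to scale by distance in bp from the gene's lower coordinate (x) and by log-LR (y). Bars are regions, and the shaded band is the gene. The bars at Rn7sk and Rn7s1 reach 39.3 and 31.7, those at Rn7s2 and over Rn4.5s stay at 4.47 and 7.12, and Rmrp and Rpph1 have none.

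Rn7sk, at chromosome 9, 78175302 to 78175633, carried the highest score of the 6 genes. Its single region, at 78175390 to 78175637, was 248 bp wide and had a log-LR of 39.3. The region covered 244 of the 332 bases of the gene, or 73.5%. It started at base 89 counted from the lower coordinate and ran 4 bp past the upper one, so 98.4% of it lay within the 7SK gene. The next region on either side was 66831 bp away. Rn7sk was not in a dense run, that is, a stretch of at least 5 regions in which neighbours are no more than 20 kb apart.

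That score stood high in the list. Rn7sk ranked 136 of 8404 fasted regions, and 42 of the 7643 that lay outside dense runs on assembled chromosomes. Of the 41 such regions above it, 20 overlapped an annotated gene. The highest, on chromosome 2, had a log-LR of 1371 and overlapped none. How the authors placed reads that match several places is not given, so their part in these scores, that of Rn7sk included, was not tested. The Rn7sk region can also be set beside regions of like width. This is a description only, because the gene was picked with the same list in view. Outside runs, 955 regions were within 20 bp of the Rn7sk region in width. Their median log-LR was 5.01 and their 95th percentile 9.04, and 6 of them scored higher. The nearest coding gene, Cilk1, a kinase gene, lay 3187 bp away, so no coding gene end lay within 1 kb of the Rn7sk region. Cilk1 had 1 region of its own, at its far end, which is the region 66831 bp from Rn7sk. The long non-coding RNA gene C920006O11Rik has its lower end within 1 kb of it.

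The 2 genes for 7SL RNA, both on chromosome 12, differed in score. Rn7s1, at 69159295 to 69159593, was overlapped by a region of 263 bp with a log-LR of 31.7, at 69159288 to 69159550. Rn7s2, at 69361183 to 69361481, was overlapped by a region of 132 bp with a log-LR of 4.47, at 69361246 to 69361377. The Rn7s1 region covered 85.6% of its gene and began 7 bp before it, whereas the Rn7s2 region covered 44.1% and lay wholly inside. Both genes are 299 bp long. The Rn7s1 region ranked 150 in the list and 53 outside dense runs, and the Rn7s2 region ranked 5424, below the median. With 1 score per region and no replicate values, the difference between the 2 genes could not be tested. Both genes encode 7SL RNA and can share reads, so the division of signal between them is uncertain; how the authors placed reads that match several copies is not given in the sources used here.

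A smaller region lay beside Rn7s1. It was 176 bp wide, had a log-LR of 4.84, and sat 449 bp from the gene at 69158670 to 69158845, inside Rps29, a gene for a protein of the small ribosomal subunit. One end of Rps29 lies 108 bp from Rn7s1, so the region over Rn7s1 is also within 1 kb of that end. The region over Rn7s1 overlaps no base of Rps29. The gene table gives no strand, so whether this end is the start of Rps29 was not determined. Of the 856 regions outside runs with a width within 20 bp of that over Rn7s1, 6 had a higher log-LR, and their median was 5.04. The nearest coding gene to Rn7s2, Nemf, which acts in ribosome quality control, was 3981 bp away and had 0 regions at its ends or inside it.

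Rmrp and Rpph1, whose RNAs belong to related enzymes, had no region. Rmrp lies at chromosome 4, 43492785 to 43493059, and its nearest fasted region was 6546 bp away, a region of 126 bp inside Arhgef39 with a log-LR of 5.96. Rpph1 lies at chromosome 14, 50807447 to 50807771, and its nearest region was 122829 bp away, with a log-LR of 4.07, in Pip4p1. A gene without a region in this list may still carry the mark to an equal degree in fasted and fed mice, since the lists hold differences only.

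These 2 genes sit close to the start of a coding gene. Rpph1 is 125 bp from Parp2, a gene for a DNA repair enzyme, and Rmrp is 280 bp from Ccdc107. Neither coding gene had a region at its ends or inside it (0 for both). By comparison, 13.8% of the 167 short genes lying outside a coding gene but within 1 kb of one had a region within 1 kb, against 2.30% of the 2303 short genes that overlap a coding gene and 2.17% of the 4110 farther away. This split was chosen after the values were seen. Rn7s1, which has a region and lies 108 bp from Rps29, belongs to the 167 genes, as do Rmrp and Rpph1. Each of the 2 shown stretches held 1 octamer, 88 bases from Rpph1 and 214 bases from Rmrp. Both lay nearer to the coding gene, 29 bases from Parp2 and 58 bases from Ccdc107. Which gene either octamer serves was not tested. The octamer was found in 1.60% of all 32851 RefSeq windows, counted over the 250 bases before the start. The Ccdc107 stretch also held TATAAA, which 12.4% of windows hold. The B box GTTCNANNC (7.85% of windows) and the CRE TGACGTCA (1.55%) were in neither stretch. All motifs were searched on both strands, and a match is a description of the letters only. Counting 250 bases makes the windows slightly longer than the 231 and 225 bases shown.

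Rn4.5s, at chromosome 6, 47654921 to 47655094, differed from the others in that its regions were part of a dense run. Rn4.5s lies inside the predicted coding gene Gm40369, at 47652901 to 47657148. Gm40369 had 4 regions within 1 kb of its ends and 6 inside it or within 1 kb. Within 1 kb Rn4.5s had 4 regions, all of them also inside Gm40369. The one over Rn4.5s was 567 bp wide, covered all 174 bases and had a log-LR of 7.12. Those beside it had a log-LR of 7.47 at 277 bp, 10.5 at 630 bp and 10.4 at 995 bp. The region at 995 bp is the one just inside the limit of 1 kb, and the next beyond it lay 2717 bp away. The region over the gene therefore did not have the highest log-LR of the 4. Sequence recurs along the run, as described below, so whether the reads counted here came from this place alone was not tested.

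The run held 32 regions from 47651680 to 47686619, a span of 34.9 kb of which regions covered 48.4%. Rn4.5s lies near its lower end, with 4 regions below the gene and 27 above it. Log-LR in the run had a median of 7.0 and ranged from 4.07 to 12.6, and the region over Rn4.5s ranked 16. Regions there were wide, with a median width of 578 bp against 205 bp in the whole list. Among the 51 runs of the list it ranked 4 by number of regions and 13 by median log-LR. RefSeq annotates 7 genes in the span, Rn4.5s and 6 predicted coding genes whose symbols start with Gm. Whether the span holds further, unannotated copies of Rn4.5s was not determined, because the sequence of the gene was not at hand.

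**Figure D2:**
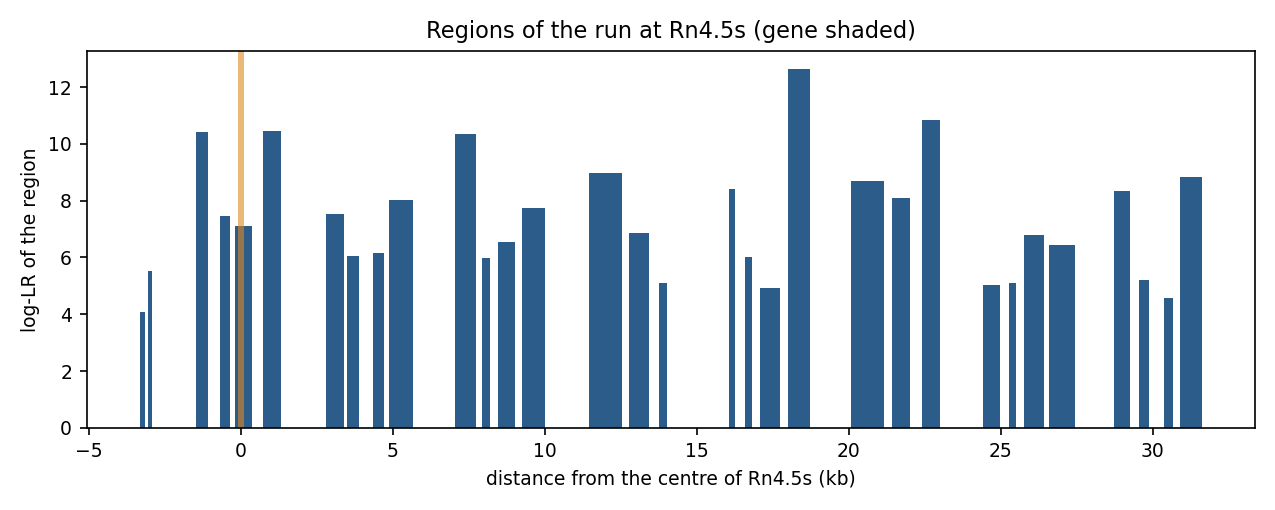
The 32 regions of the run at Rn4.5s by distance from the centre of the gene in kb (x) and log-LR (y). Each bar is 1 region at its true width, and the shaded band is Rn4.5s. Above the gene, scores between 4.58 and 12.6 continue for 31.5 kb.

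Sequence recurred along this run. The window of Gm40369 shown above was identical in all 300 bases to the windows of Gm40367, Gm36327 and Gm40364. These start 8600, 21590 and 25915 bp farther along the chromosome, in steps of 8600, 12990 and 4325 bp. Each of the 4 copies overlapped a fasted region, with a log-LR of 10.4, 10.4, 8.71 and 5.03 in that order. Regions covered 184 bases of the Gm40369 copy and all 300 bases of each of the other 3. The copies had unequal scores although their letters were the same. A stretch of 30 bases from the shown sequence was also found in the windows of 10 genes outside the run. No such stretch (0 genes) was shared by the sequences beside Rpph1 and Rmrp. Identical copies do not let a short read be placed at 1 of them by its letters alone, and the part of this in the scores was not tested. None of the 4 motifs occurred in the 250 bases shown (0 matches each). The 4 annotated Rn4.5s pseudogenes, elsewhere in the genome, had no region within 1 kb (0 each), and their nearest regions were 36490 to 189572 bp away.

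Set beside all other short genes with a region over them, Rn7sk and Rn7s1 ranked 1 and 2 by log-LR. The 52 other short genes overlapped by a region had a median log-LR of 5.29, and 3 of them reached 10. The highest of these was Fau-ps2 (19.2, in a dense run), followed by the pseudogenes Gm10060 (12.4) and Gm8680 (11.8). Outside dense runs the next were Rps15-ps2 (9.36), Gm6867 (7.91), and Mir129-2 and Mir129b (both 7.76, under 1 region). Rn4.5s and Rn7s2, at 7.12 and 4.47, lay within the range of the 15 microRNA and 13 5S ribosomal RNA genes.

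**Figure D3:**
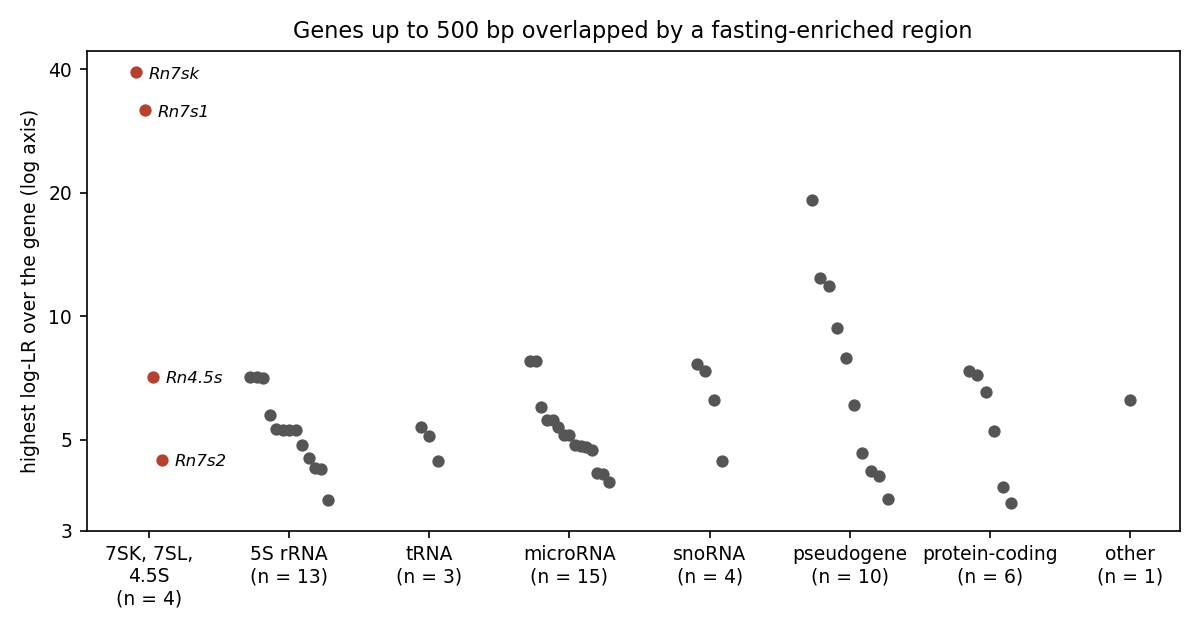
Highest log-LR over each of the 56 genes up to 500 bp that a fasting-enriched region overlaps, by class (x), on a log axis (y). Each point is 1 gene, and 2 genes may share a region. Rn7sk at 39.3 and Rn7s1 at 31.7 lie above the next gene, a pseudogene at 19.2.

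Other genes transcribed by RNA polymerase III were taken from lists by symbol, 480 genes in all. No region lay within 1 kb of the U6 spliceosomal RNA gene Rnu6 or its 2 pseudogenes, the Y RNA genes Rny1 and Rny3, the vault RNA gene Vaultrc5, or Bc1, the gene of a dendritic RNA of neurons. Their nearest regions were 16407 bp away for Rnu6, 3372 bp for Rny3, 9818 bp for Rny1, 131516 bp for Vaultrc5 and 116237 bp for Bc1. Rny1 and Rny3 lie on the same chromosome as Rn4.5s, 101 and 95 kb beyond the end of its run. Genes for small nuclear RNAs, U3 and U7 that RNA polymerase II transcribes, taken as a contrast, had 0 of 20, including 6 pseudogenes. Only 2.51% of all genes up to 500 bp had a region, so lists this small cannot separate the polymerases. No difference is read from these zeros.

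Genes for 5S ribosomal RNA had a region within 1 kb in 37 of 70 cases (52.9%), beside 2.51% of all short genes. Of the 70, 18 were pseudogenes, and all 37 with a region had one in a dense run. These 37 all lay on chromosome 8, between 123538784 and 123622046, and so are neighbours at a single locus. Neighbours could share a region, as n-R5s113 and n-R5s114 did. How reads that match several copies were placed is not given. In 13 a region overlapped the gene. Their scores were moderate, with a median of 5.24 for the highest region of each gene and a maximum of 7.37 at n-R5s129, followed by n-R5s149 (7.27), n-R5s133 (7.13) and n-R5s123 (7.09). The gene named Rn5s itself had its nearest region 1045 bp away, just outside the limit. Like Rn4.5s, and unlike Rn7sk, Rn7s1 and Rn7s2, the 5S genes with a region lay in a run.

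Transfer RNA genes had a region within 1 kb in 24 of 403 cases (5.96%, against 2.51% of all short genes). A region overlapped the gene in 3 (0.744%, against 0.851% of all short genes). Of the 24, 11 had a region in a dense run, all on chromosome 1. The 24 genes shared 16 highest regions, and for 14 of the 24 that region was in a coding gene or within 1 kb of one. The highest, at 20.3, served both n-TYgta9 and n-TAagc15 and lay in the coding gene Agbl5, 947 and 531 bp from them. Next were n-TTcgt3 (8.53, at 225 bp) and n-TRtct2 (7.79, at 9 bp). Of the 8 regions within 1 kb of Rn7sk, Rn7s1, Rn7s2 and Rn4.5s, 4 overlapped one of these genes and 4 lay beside one of them. The highest region of Rn7sk, Rn7s1 and Rn7s2 lay over the gene, and that of Rn4.5s lay 630 bp from it.

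**Figure D4:**
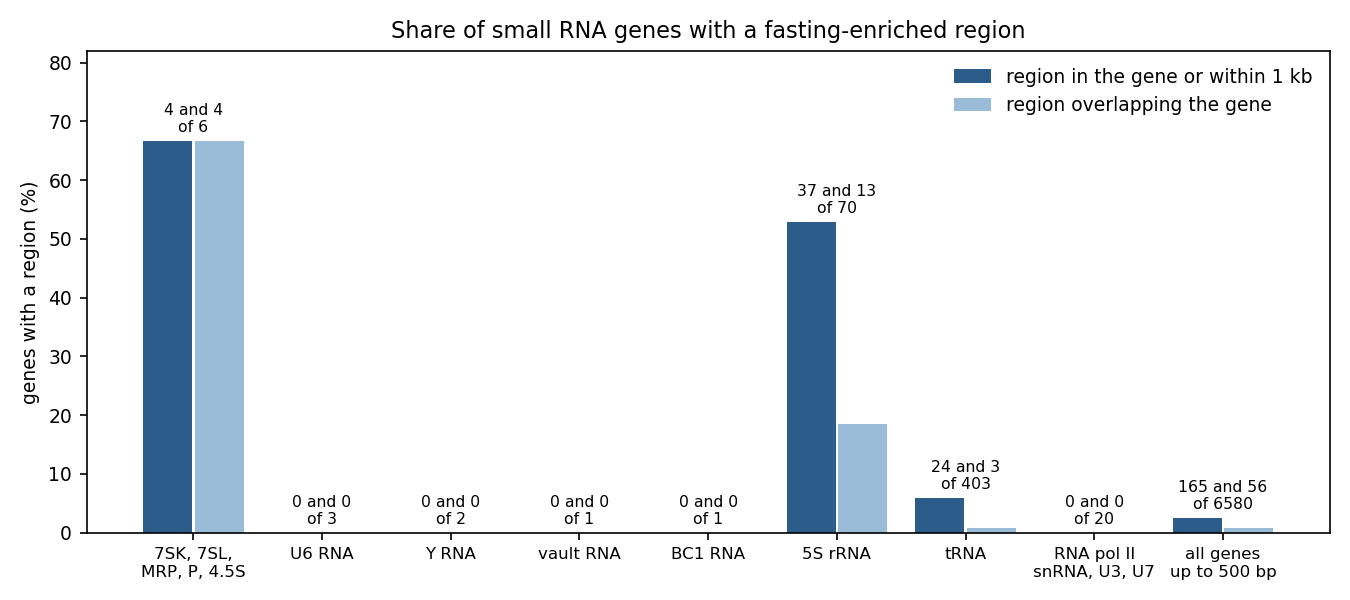
Percentage of genes in each class (x) with a fasting-enriched region in the gene or within 1 kb (dark bars) or overlapping the gene (light bars). Counts of genes with a region within 1 kb and over the gene stand above each pair. Rn7sk, Rn7s1, Rn7s2, Rmrp, Rpph1 and Rn4.5s had 4 and 4 of 6, the 5S genes 37 and 13 of 70, the tRNA genes 24 and 3 of 403, and all genes up to 500 bp 165 and 56 of 6580.

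Genes for the proteins that make or bind these RNAs were taken from lists by symbol. A region lay within 1 kb of an end in 8 of 59 genes (13.6%), a share near the 11.9% of all 21887 coding genes. Of 13 subunits of RNA polymerase III, 1 had one, Polr3f (log-LR 5.70). Of 19 transcription factors, 3 did. These were Gtf3c4 (7.09) and Gtf3c1 (4.41), subunits of TFIIIC, and Maf1 (4.08), the repressor of RNA polymerase III that acts when nutrients are short. Each of these 4 regions also lay in or within 1 kb of another gene, Dzank1 for Polr3f, Ddx31 for Gtf3c4, D430042O09Rik for Gtf3c1 and Sharpin for Maf1. With regions anywhere in the gene or within 1 kb counted, 11 of the 59 genes had one, beside 18.1% of all coding genes. A region inside the gene but away from its ends was found for Brf1 (8.20), a TFIIIB subunit, and Snapc3 (4.56), a subunit of the complex that binds 7SK-type promoters.

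Among the partners of each RNA, 2 of the 7 genes of the 7SK particle had a region at an end, Cdk9 (5.14), the kinase of P-TEFb, and its cyclin gene Ccnt1 (4.38). Both regions lay outside the gene; that of Cdk9 was in or within 1 kb of Mir2861, Mir3960 and Gm33457, and that of Ccnt1 of 9330020H09Rik. Hexim2, an inhibitor in the same particle, had one inside the gene (6.80). Of 8 signal recognition particle genes, 1 had a region, Srp14 (7.60), whose protein binds the Alu part of 7SL RNA. Of 11 genes for protein subunits of RNase P and RNase MRP, none (0) had a region at an end or inside. Ssb, the gene of the La protein that binds new RNA polymerase III transcripts, had one of 4.01. The highest score at these 59 genes was the 8.20 inside Brf1.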

How the data were processed

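The labels describe H3K9 beta-hydroxybutyrylation chromatin immunoprecipitation and input libraries. The submitters' processing notes name Bowtie2, MACS2 and mm10, with no role or version. The authors deposited 2 region lists with position, name and log-LR per the file headers, the log-LR being a score that the authors computed for each region. Its log base, cutoff, depth scaling, pooling and handling of reads that match several places are not stated in labels or headers. Depth is unknown. Starts were read as counted from 0, since the narrowest region was then 120 bp, and are given from 1.

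Genes came from RefSeq GRCm38.p6, without strand. A region was taken where fewer than 1000 bases separated it from the gene. Coding genes were counted by regions within 1 kb of an end. The assignment was tested on simulated data. The members and lists were chosen with earlier results of these data known, and no test was run. Named were the 6 genes, their neighbours, up to 4 genes of each list by log-LR, and the 5 highest other short genes outside runs. Fau-ps2, Brf1, Snapc3, Hexim2, Rn5s, Cilk1, Nemf, Arhgef39, Pip4p1, Agbl5, Rn18s-rs5 and AY036118 were named after their values were seen. Promoter windows (250 bases before to 50 after a start) are RefSeq's. The software was pandas 2.3.3 and numpy 2.4.6 under Python 3.11.15, with matplotlib 3.10.9 for figures and scipy 1.17.1 for intervals used in comparing settings.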

Additional observations from a re-analysis of the deposited data

How the results depend on the processing

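Of the 6 genes, 4 had a region when only overlap with the gene counted, within 500 bp, within 3 kb, with regions within 1 kb merged and with starts counted from 1. Rn7s2 dropped out at a log-LR of at least 5 or 10, and Rn4.5s without dense runs, which left 3 in each case. At the limit of 10, Rn4.5s was kept only through regions beside it (10.5 and 10.4), as the region over it had 7.12. The highest log-LR at Rn4.5s was 7.12 by overlap and 7.47 within 500 bp, against 10.5 within 1 kb. The share of all genes with a region (10.1%) was 8.55% by overlap, 9.61% within 500 bp, 11.3% within 3 kb, 5.42% when regions needed a log-LR of 5 and 0.364% when they needed 10, and 9.77% without runs. For genes up to 500 bp (2.51%) it was 0.851%, 1.99%, 4.53%, 1.46%, 0.152% and 1.44% under these settings in the same order, and 1.75% with genes up to 1000 bp. The 61 other RNA polymerase III genes with a region became 16 by overlap, 36 with a log-LR limit of 5, 2 with a limit of 10, and 13 without runs. Narrower windows, score limits and dropped runs select fewer regions by construction. No paired analysis was possible because each region has a single value for all mice together, and replicates could not be left out in turn either.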

Other observations

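Ribosomal RNA made by RNA polymerase I also appeared among the high scores outside dense runs. The gene Rn18s-rs5 on chromosome 17 was overlapped by a region of 5003 bp with a log-LR of 85.3 and by another of 644 bp with a log-LR of 53.0. The region of 644 bp also overlapped AY036118. How reads that match several copies were placed is not given, so whether these reads came from this locus was not determined. Both scores are higher than the 39.3 at Rn7sk. These regions were picked out after their values were seen.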
